A study of Oryza sativa Japonica Group with 36 samples.

Results

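The 100 genes described here were those that stayed higher in the flag leaf (FL) than in the second leaf (SL) of rice throughout grain-filling. They were taken from 38026 genes by their values. For each gene, log2(CPM + 1) was averaged over the 3 replicates of each leaf and time point, FL minus SL was taken at each of the 6 time points, and the smallest of the 6 differences was the score. The 100 genes with the highest score were the members, so FL above SL at every time point is what chose them and is given below as a description without a test. The groups were FL and SL, each at 6 time points counted in days after heading (DAH), namely 4 and 12, then 20 and 28, then 36 and 44 DAH, with 3 libraries in each of the 12 groups and 36 libraries in all. All came from field-grown plants of the japonica cultivar Dongjin, to which no treatment was given. Each replicate was 1 pool of the middle parts of 9 leaves, and the 3 replicates of a group were collected at the same time, so the spread between them is that between pools of 1 field and 1 season. Both leaves share this cultivar, field, and sampling scheme.

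The flag leaf is the uppermost leaf of a rice stem, directly under the panicle, and the second leaf is the next one below it. Both supply the filling grains, first with carbon fixed by photosynthesis and later with nitrogen released as the leaves senesce. The upper leaf stands in stronger light. Leaves in strong light are known to make flavonoids, which are phenolic sunscreens derived from phenylalanine, and photolyases, which are enzymes that use blue light to repair DNA damaged by ultraviolet light.

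CPM is the usual depth-scaled read count, the reads on a gene relative to the reads on all genes of the library, here after TMM scaling of the library size. It is not divided by gene length, so values were compared between leaves and days and not between genes. The libraries held 5931903 to 29789199 reads in FL (median 17017740) and 5713546 to 26082278 reads in SL (median 12194003), and 3 reads corresponded to 0.106 to 0.511 CPM. All 100 members passed the filter on low values, as did 22057 genes in all. None of the members had an FL library at 3 reads or fewer, and 12 had 1 or 2 such SL libraries. The SL libraries at 36 DAH disagreed in the members. In replicate 3, 19 of the 100 were more than 1 log2 unit above the mean of the other 2 libraries of its group and 2 were as far below, against 3.39% and 4.24% of all tested genes, and in 5 members it lay above all 3 FL libraries of that day. In replicate 1, 15 members were more than 1 unit below the other 2 libraries and none was as far above, against 0.54% and 1.07% of all tested genes. In SL replicate 2 at 44 DAH, 10 members were more than 1 unit below and 2 above, against 5.11% and 2.65%. The main differences at 36 DAH are given with and without each of the 2 libraries of that day, a choice made after seeing the data.

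The markers of leaf mesophyll and of other tissues had ranges that overlapped between the leaves. The Rubisco small subunit genes OS12G0274700 and OS12G0291100, which mark photosynthetic leaf cells, were at 800 to 1639 CPM and 973 to 3400 CPM in FL, against 539 to 1238 CPM and 1438 to 3107 CPM in SL. By day, OS12G0274700 differed by -0.19 to 0.75, with FL highest relative to SL at 4 DAH and no overlap on 2 days, and OS12G0291100 by -0.56 to 0.27. Of 2 further identifiers listed as Rubisco small subunit genes, whose name was not in the reference table, OS12G0292400 differed by -0.35 to 0.62, and OS12G0291400 was lower in FL on 5 of 6 days, by -1.22 at 20 DAH. The shoot meristem gene OSH1 (OS03G0727000) had no read in any library. The floret gene MADS1 (OS03G0215400) was at 9.49 to 25.6 CPM in FL and 11.4 to 22.8 CPM in SL, and the endosperm glutelin genes OS10G0400200 and OS01G0762500 were at 6.20 to 20.7 CPM and 0 to 13.9 CPM in FL, against 6.04 to 29.2 CPM and 0 to 22.3 CPM in SL. In whole leaf tissue, more cells of a type and more RNA per cell cannot be told apart.

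The scores ran from 1.60 for OS06G0102100 to 0.48 for OS09G0426800, with a median of 0.59, on the log2(CPM + 1) scale. In 7 members FL exceeded SL by more than 1 log2 unit at all 6 time points, and in 78 members at 1 or more. The median difference over the members was 0.91, 0.86, 1.11, 0.98, 0.90, and 0.70 from the first to the last day, where the medians over all tested genes lay between -0.03 and 0.03. At 36 DAH the median was 0.98 without SL replicate 3 and 0.73 without SL replicate 1, and at 44 DAH it was 0.66 without SL replicate 2. The difference was largest at 20 DAH in 46 members and at 44 DAH in 1, whereas it was smallest at 44 DAH in 47 members and at 20 DAH in none. The leaves therefore stood furthest apart in these genes at 20 DAH and closest together at 44 DAH, within a set chosen so that the gap never closed. The counts of largest and smallest differences are given without the shares of all tested genes and describe the members only. By another measure, the extremes fell on the same days among all tested genes. FL above SL without overlap of libraries was most frequent among them at 20 DAH (28.2%) and least frequent at 44 DAH (9.19%). The other days were ordered otherwise. The share was 14.4% at 28 DAH, below 22.8% at 4 DAH. The median of the members was higher at 28 than at 4 DAH. That measure also depends on the spread between libraries, so it cannot show whether the course was particular to the members.

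**Figure D1:**
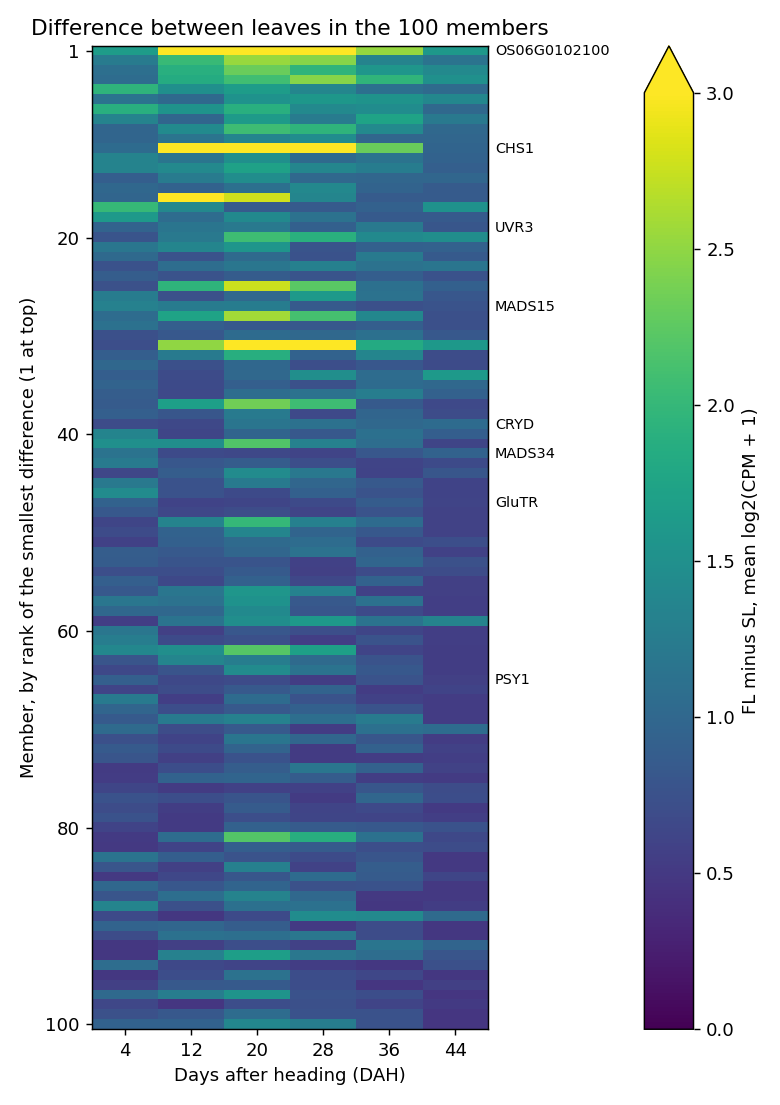
Difference between leaves in the 100 members. Rows are members by rank of their smallest difference, columns are the 6 time points, and colour is FL minus SL in mean log2(CPM + 1), with values above 3 in the brightest colour. The bright band at 12 to 28 DAH comes from a few members such as OS06G0102100 and CHS1, and the median over members is highest at 20 DAH (1.11) and lowest at 44 DAH (0.70).

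The libraries of the 2 leaves rarely overlapped in the members, which follows from their choice. All 3 FL libraries lay above all 3 SL libraries in 95, 95, 98, 95, 85, and 81 members from the first to the last day, where the shares of all tested genes were 22.8%, 16.7%, 28.2%, 14.4%, 15.1%, and 9.19% in the same order. At 36 DAH the number was 98 without SL replicate 3 (22% of all tested genes) and 85 without SL replicate 1 (18.1%), and at 44 DAH it was 85 without SL replicate 2 (15.5%). At all 6 time points together, 67 members had no overlap, against 0.907% of all tested genes. Leaving out 1 library at a time, over all 36 libraries, gave 67 to 75 members, the highest number without SL replicate 3 of 36 DAH (1.14% of all tested genes). In 85 members, FL was above SL in all 18 pairs of libraries with the same day and number, against 2.26% of all tested genes. The labels do not say whether a shared number pairs libraries. In 11 members, the lowest FL mean of any day lay above the highest SL mean of any day, against 0.304% of all tested genes. These were OS01G0718700, OS04G0197100, MADS15, OS03G0841900, MADS34, OS10G0101200, OS10G0577700, OS12G0102600, OS01G0113650, OS11G0213800, and OS01G0891300, of which all but the MADS genes are known here by identifier only, and all were listed after their values were seen.

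The steadiness of the gap varied widely. The range of the 6 differences within a member had a median of 0.65, was under 0.5 in 28 members, and was over 1 in 22. The narrowest range was in OS03G0413100 (0.15), singled out after its values were seen, whose differences lay between 0.75 and 0.90. This gene was at 63.8 to 151 CPM in FL (median 119.7) and at 32.8 to 101.7 CPM in SL (median 64.5), and its libraries did not overlap on any day. The widest range was in the chalcone synthase gene CHS1 (3.71).

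The 20 members with the highest scores included 2 genes with a symbol, CHS1 and UVR3, and 16 of the 20 had no overlap at any time point. OS06G0102100, a protein-coding gene named here by identifier only, came first. It had 20.4, 13.7, and 20.2 CPM in FL at 4 DAH, against 4.52, 4.89, and 5.50 CPM in SL. At 12 DAH it had 116, 87.9, and 176 CPM in FL, against 20.4, 10.2, and 10.8 CPM in SL. At 20 DAH it had 75.5, 109.7, and 64.0 CPM in FL, against 3.96, 1.31, and 1.10 CPM in SL. The FL and SL libraries were thus far apart at 20 DAH, where the difference reached 4.83 log2 units. At 44 DAH the FL libraries had 4.13, 9.65, and 17.8 CPM, against 2.04, 1.83, and 3.26 CPM in SL, and still did not overlap, with a difference of 1.60. At 36 DAH its SL libraries were spread over 0.667, 3.30, and 14.6 CPM, and the difference of 2.53 was 3.37 without replicate 3 and 1.76 without replicate 1.

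OS01G0246400, with rank 2, had 15.7, 10.4, and 9.87 CPM in FL at 4 DAH, against 3.09, 4.89, and 5.43 CPM in SL. At 20 DAH it had 169, 237, and 230.05 CPM in FL, against 48.4, 26.3, and 34.7 CPM in SL. At 36 DAH the FL libraries of OS01G0246400 had 238, 337, and 256 CPM, against 42.2, 78.3, and 372 CPM in SL, so 1 SL library was the highest of the 6 and the leaves overlapped on that day. The difference at 36 DAH was 1.34, and it was 2.23 without SL replicate 3 and 0.68 without SL replicate 1. OS01G0718700, with rank 3, was lower in reads but did not overlap on any day: it ranged over 2.64 to 18.3 CPM in FL (median 8.72) and 0.767 to 3.82 CPM in SL (median 1.98). OS09G0537700, with rank 4, was lower at 44 than at 4 DAH in each leaf, with 127, 147, and 259.9 CPM in FL at 4 DAH, against 112, 53.3, and 87.9 CPM in SL, and 6.48, 4.75, and 5.09 CPM in FL at 44 DAH, against 4.77, 0.228, and 0.621 CPM in SL. Replicates of OS09G0537700 differed widely at 20 DAH, with 48.6, 113, and 12.2 CPM in FL and 14.1, 41.2, and 0.552 CPM in SL.

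The change with time was tested as the mean of both leaves at a later day minus that at 4 DAH. FL minus SL itself was not tested. A change in 1 leaf alone moves both this mean and FL minus SL, as in CHS1 at 20 DAH, described below. The counts of changed members are therefore not independent of how the members were chosen. Of the 100 members, 98 changed over the 6 time points (limma, Benjamini-Hochberg adjusted p below 0.05), where 86.7% of all tested genes did, so a change with time was not particular to the members. At 20 DAH, 67 members were higher than at 4 DAH and 14 were lower, against 28.2% and 27.7% of all tested genes, and 19 did not pass the threshold. The median log2 change at 20 DAH was 0.86 over the members and 0.03 over all tested genes. At 44 DAH, 59 members were higher than at 4 DAH and 22 were lower, against 33.4% and 34.1% of all tested genes, and 19 did not pass. The median log2 change at 44 DAH was 0.47 over the members, against -0.004 over all tested genes. Of the 67 members higher at 20 DAH, 53 were also higher at 44 DAH, 4 were lower, and 10 did not pass. Those 4 were OS09G0413700, OS02G0687900, OS06G0329200, and OS03G0788200. Of the 14 members lower at 20 DAH, 10 were also lower at 44 DAH and none was higher.

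The 100 genes chosen by the same rule with the leaves exchanged, higher in SL throughout, had 35 genes higher and 35 lower at 20 than at 4 DAH, and 43 higher and 32 lower at 44 DAH. The difference between the 2 sets was not tested.

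**Figure D2:**
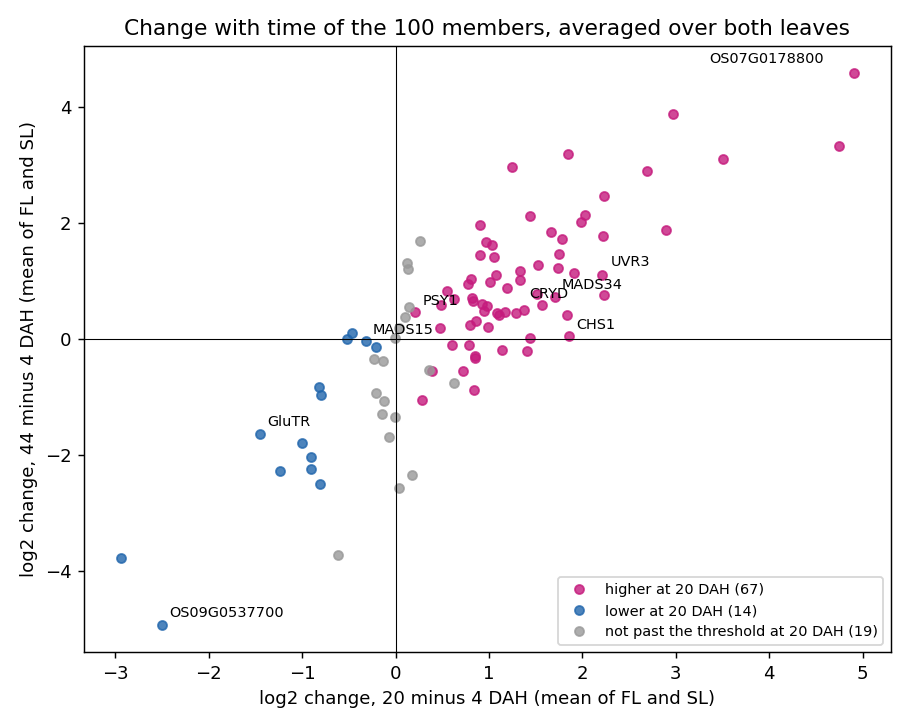
Change with time of the 100 members. Each point is 1 member, with the log2 change from 4 to 20 DAH on the horizontal axis and from 4 to 44 DAH on the vertical axis, both as the mean of FL and SL, coloured by the call at 20 DAH. Most points lie to the right of 0 (67 higher, 14 lower), and the range at 44 DAH runs from -4.92 for OS09G0537700 to 4.58 for OS07G0178800.

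The highest day was often shared by the leaves. The FL mean was highest at 12 or 20 DAH in 27 and 28 members, and the SL mean was highest at 12 DAH in 33 members and at 28 DAH in 22. The highest day was the same in both leaves in 65 of the 100 members. At 20 DAH, the FL mean was at its highest in 28 members and the SL mean in 9. The shares of all tested genes are not given for the highest day, so these counts describe the members only.

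Among the 20 members with the highest scores, 14 were higher and 3 lower at 20 than at 4 DAH, and 12 were higher and 4 lower at 44 DAH. OS01G0246400 rose by 3.50 (SE 0.32, adjusted p = 2.13e-10, limma) at 20 DAH and by 3.11 (SE 0.32, adjusted p = 8.1e-10) at 44 DAH. OS03G0137600 rose by 2.69 at 20 DAH and 2.91 at 44 DAH, and was at 20.3 to 149 CPM in FL and 3.97 to 92.0 CPM in SL. OS11G0302800 rose by 3.19 at 44 DAH, where it had 25.4, 23.9, and 27.8 CPM in FL, against 8.86, 8.53, and 8.38 CPM in SL. OS11G0129000 rose by 2.47 at 44 DAH and was at 19.6 to 284 CPM in FL and 6.73 to 98.6 CPM in SL. In the other direction, OS09G0537700 fell by 2.50 at 20 DAH (SE 0.60, adjusted p = 0.000733) and by 4.92 at 44 DAH (SE 0.60, adjusted p = 2.45e-08). OS07G0288700 fell by 0.90 at 20 DAH and by 2.03 at 44 DAH. OS12G0512200 fell by 1.34 at 44 DAH (SE 0.30, adjusted p = 0.00029). OS05G0227600 fell by 0.82 at 20 and at 44 DAH in the mean of the leaves, but its change at 20 DAH was 0.02 in FL and -1.79 in SL, a contrast of leaves that was not tested. It stood in FL at 157, 245, and 177 CPM at 12 DAH, against 20.49, 14.2, and 16.04 CPM in SL. Without replicate 3 of all groups, the change at 20 DAH no longer passed for OS09G0537700 (adjusted p = 0.0682) and OS05G0227600 (adjusted p = 0.0806). For OS04G0197100 the change at 44 DAH of 0.59 (adjusted p = 0.0402) did not pass under 6 alternatives (adjusted p = 0.0505 to 0.206), leaving out replicate 1 or 3 among them. OS06G0102100 itself did not pass at 20 DAH (0.62, SE 0.40, adjusted p = 0.192) or 44 DAH (-0.76, SE 0.40, adjusted p = 0.095). Without replicate 3 it passed at both (adjusted p = 0.0394 and 0.0145).

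Flavonoid synthesis was represented by CHS1 (OS11G0530600), ranked 11. Chalcone synthase condenses a coumaroyl unit with malonyl units and so commits phenylpropanoids to flavonoids. CHS1 had 3.66, 2.54, and 3.68 CPM in FL at 4 DAH, against 0.993, 1.15, and 1.05 CPM in SL. At 12 DAH it had 197, 57.4, and 156 CPM in FL, against 13.2, 7.47, and 4.03 CPM in SL. At 20 DAH it had 37.4, 91.3, and 40.7 CPM in FL, against 2.47, 0.563, and 0.621 CPM in SL. The FL and SL libraries were furthest apart at 20 DAH, by 4.68 log2 units, where 2 of the SL libraries were under 1 CPM. At 44 DAH the FL libraries of CHS1 had 0.530, 4.59, and 7.29 CPM, against 0.341, 1.14, and 2.33 CPM in SL, and the leaves overlapped, with a difference of 0.96. Averaged over leaves, CHS1 rose by 1.86 at 20 DAH (SE 0.46, adjusted p = 0.00103, limma), and its change at 44 DAH was 0.06 (SE 0.46, adjusted p = 0.917). The difference between leaves at 36 DAH was 2.31, and it was 3.16 without SL replicate 3 and 1.75 without SL replicate 1. The change at 20 DAH was 3.63 in FL and 0.0018 in SL.

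**Figure D3:**
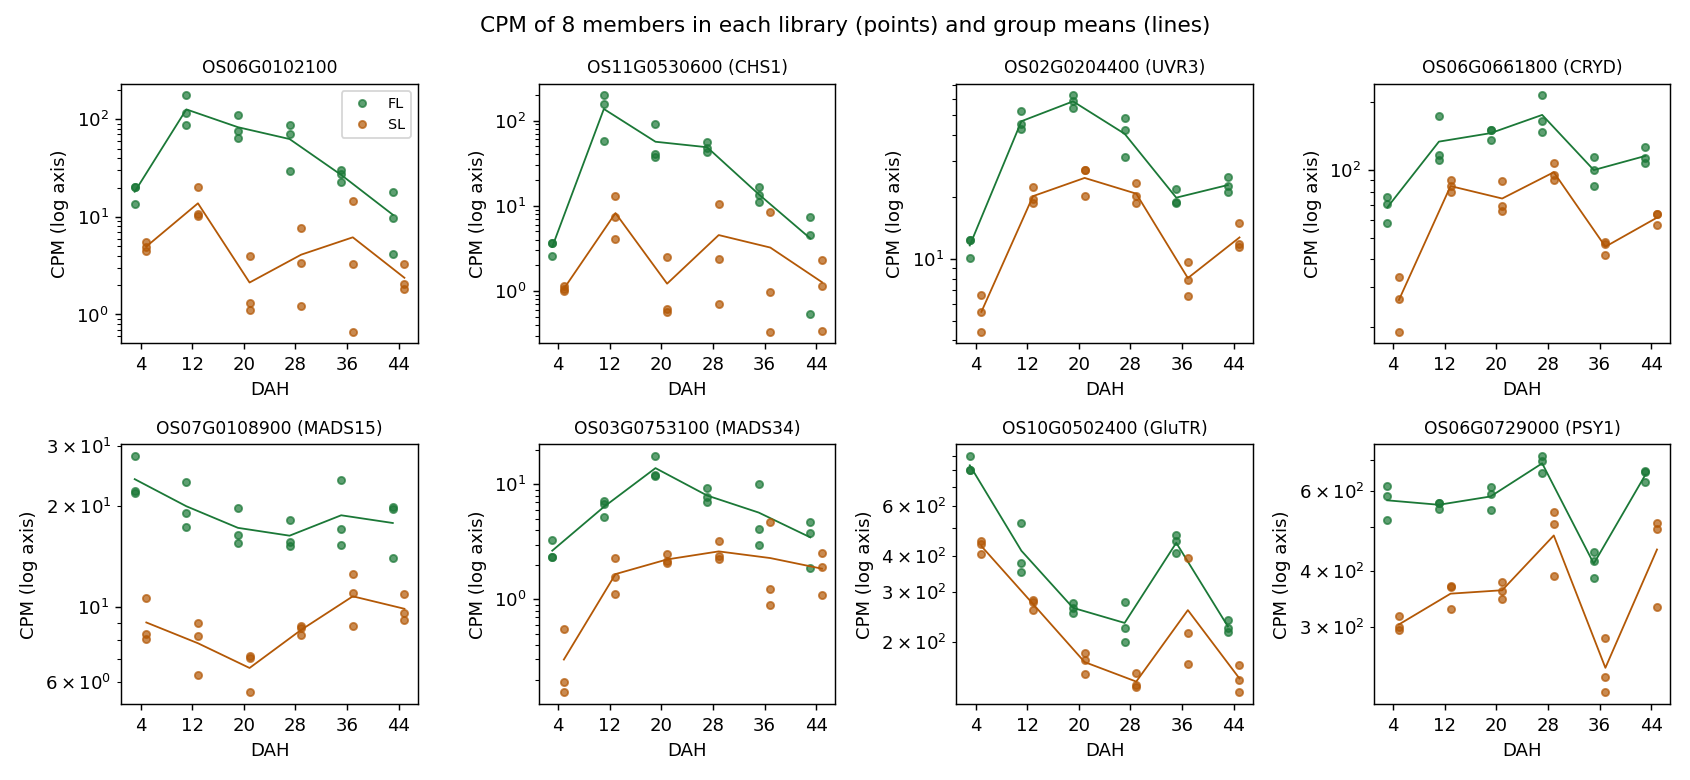
CPM of 8 members in each library. Each panel is 1 gene, with days after heading on the horizontal axis and CPM on a log axis, points are single libraries of FL (left) and SL (right), and lines join the means of 3 libraries. CHS1 and OS06G0102100 show the widest gaps at 12 to 28 DAH. In all panels but those of CHS1 and MADS34, the FL points lie above the SL points of the same day on every day.

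The other genes of the phenylpropanoid and flavonoid list were not members. Of 11 listed genes with a name in the reference table, 8 were tested. FL was above SL at all 6 time points in 2 of them, CHS1 and 4CL2, against 11.5% of all tested genes. CHS1, as a member, meets this by the rule. Of the 8, 7 had a mean difference above 0, with a list median of 0.85. Both figures include CHS1, which was chosen for FL above SL. Over all tested genes the median of the mean difference was 0.01, and 51.5% were above 0. The list was chosen with results of these data known. Phenylalanine ammonia-lyase (PAL, OS02G0626100), the entry enzyme of the pathway, differed by 0.28 at 4 DAH, reached 2.59 at 28 DAH, and was at -0.17 at 44 DAH. The 4-coumarate-CoA ligase gene 4CL2 (OS02G0697400) had a score of 0.21 and differed by 3.52 at 20 DAH, with 0.158 to 20.8 CPM in FL (median 4.54) and 0 to 2.00 CPM in SL (median 0.229). Chalcone isomerase (CHI, OS03G0819600), which acts directly after chalcone synthase, differed by 1.89 at 12 DAH and by -0.51 at 44 DAH. 4CL4 (OS06G0656500) differed by 0.01 at 20 DAH and by -0.25 to -0.10 at 4 and 12 DAH, and so did not share the pattern. The chalcone synthase copy CHS2 (OS07G0214900) had no read in any library. Averaged over leaves, 4 of the 8 tested genes rose and 2 fell at 20 DAH, against 28.2% and 27.7% of all tested genes. At 44 DAH, 4 rose and 2 fell, against 33.4% and 34.1%. With 8 genes, these counts are too small to be read as a departure from the shares of all tested genes. The number that fell at 20 DAH was 0 without replicate 3 and 1 without replicate 1, without replicate 2, with a pseudocount of 0.1, with no filter on low values, and with a replicate block.

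**Figure D4:**
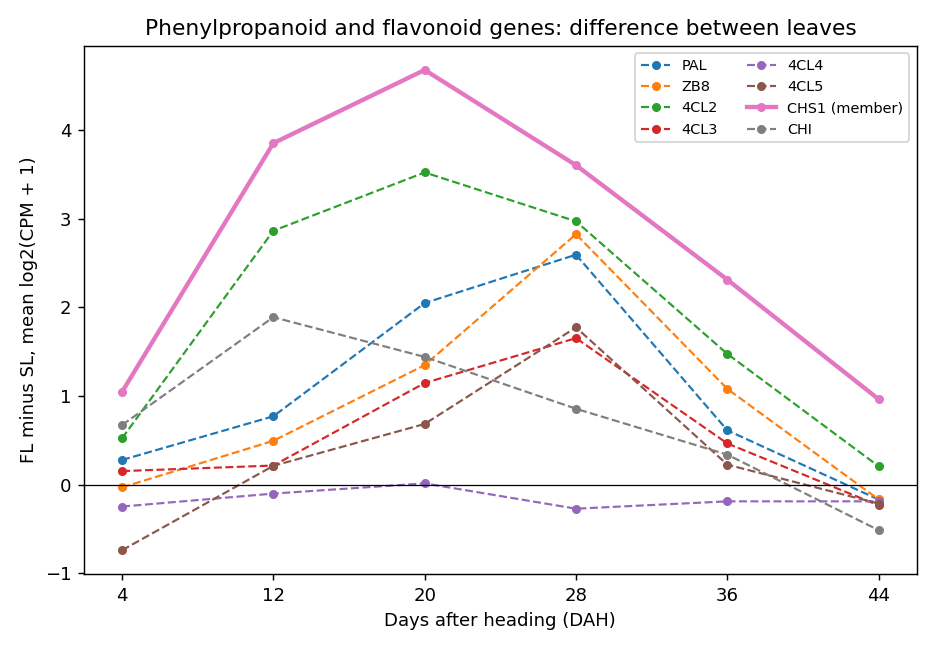
Difference between leaves in the 8 tested phenylpropanoid and flavonoid genes. The horizontal axis is days after heading and the vertical axis FL minus SL in mean log2(CPM + 1), with CHS1, the member, as a solid line and the others dashed. CHS1 and 4CL2 stay above 0 on every day, and 6 of the 8 lines end below 0 at 44 DAH.

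The photolyase family contributed 2 members. UVR3 (OS02G0204400), ranked 19, encodes a photolyase of the type known from Arabidopsis to repair ultraviolet damage in DNA. It had 10.02, 12.4, and 12.4 CPM in FL at 4 DAH, against 4.41, 6.62, and 5.50 CPM in SL. At 20 DAH it had 58.7, 53.9, and 62.3 CPM in FL, against 27.05, 26.97, and 20.1 CPM in SL. At 44 DAH it had 22.5, 21.1, and 24.9 CPM in FL, against 14.99, 11.7, and 11.3 CPM in SL. UVR3 was thus higher at 20 than at 4 DAH in each leaf, the gap between the leaves lay between 0.81 and 1.21, and its libraries did not overlap on any day. Averaged over leaves, UVR3 rose by 2.21 at 20 DAH (SE 0.10, adjusted p = 2.28e-16, limma) and by 1.11 at 44 DAH (SE 0.10, adjusted p = 1.43e-10).

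CRYD (OS06G0661800), ranked 40, encodes a cryptochrome-DASH protein, a relative of the photolyases. It was named, like the photolyase comparison, after its values were seen. It had 58.3, 70.3, and 75.5 CPM in FL at 4 DAH, against 19.1, 33.4, and 26.7 CPM in SL. At 28 DAH it had 147, 165, and 214 CPM in FL, against 94.99, 107, and 90.2 CPM in SL. The libraries of CRYD did not overlap on any day, and the difference lay between 0.62 and 1.36. Averaged over leaves, CRYD rose by 1.34 at 20 DAH (SE 0.10, adjusted p = 5.74e-12, limma) and by 1.03 at 44 DAH (SE 0.10, adjusted p = 3.98e-10). The other named gene of the family, the photolyase gene PHR (OS10G0167600), was not a member. PHR was at 69.3 to 101.96 CPM in FL (median 82.3) and 58.3 to 91.1 CPM in SL (median 75.5), and its difference ran from -0.03 at 28 DAH to 0.31 at 4 DAH.

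Among the flowering and phase regulators, 2 MADS-box transcription factors were members. MADS15 (OS07G0108900), ranked 27, belongs to the factors that turn the rice shoot meristem toward flowering. It had 21.7, 27.999, and 22.1 CPM in FL at 4 DAH, against 8.05, 8.34, and 10.6 CPM in SL. At 20 DAH it had 19.7, 16.4, and 15.5 CPM in FL, against 7.17, 7.04, and 5.59 CPM in SL. At 44 DAH it had 13.97, 19.8, and 19.5 CPM in FL, against 10.9, 9.59, and 9.16 CPM in SL. The lowest FL library of MADS15 over all days (13.97 CPM) lay above its highest SL library (12.5 CPM). The difference was 1.32 at 4 DAH and 0.77 at 44 DAH. Averaged over leaves, MADS15 fell by 0.32 at 20 DAH (SE 0.11, adjusted p = 0.0181, limma), a call lost without replicate 2 (adjusted p = 0.0848) or replicate 3 (adjusted p = 0.187), and its change at 44 DAH was -0.03 (adjusted p = 0.808).

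MADS34 (OS03G0753100), ranked 41, is known for its role in the rice inflorescence. It had 2.34, 3.26, and 2.36 CPM in FL at 4 DAH, against 0.551, 0.192, and 0.155 CPM in SL. At 20 DAH it had 17.6, 12.04, and 11.9 CPM in FL, against 2.47, 2.07, and 2.14 CPM in SL. The libraries were well apart on both days, by 1.49 and 2.18 log2 units. At 44 DAH MADS34 had 3.77, 4.75, and 1.86 CPM in FL, against 2.56, 1.90, and 1.09 CPM in SL, and the leaves overlapped. The difference at 36 DAH was 1.07, and it was 1.56 without SL replicate 3 and 0.76 without SL replicate 1. Averaged over leaves, MADS34 rose by 1.70 at 20 DAH (SE 0.23, adjusted p = 4.04e-07, limma) and by 0.74 at 44 DAH (SE 0.23, adjusted p = 0.00645). The change at 44 DAH did not pass without replicate 1 (adjusted p = 0.0883) or replicate 2 (adjusted p = 0.0566).

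Of 7 listed flowering genes with a name in the reference table, 6 were tested. FL was above SL at all 6 time points in 3 of them, against 11.5% of all tested genes. These were MADS15 and MADS34, which meet this by the rule that chose them, and the florigen gene Hd3a. The median of the mean differences of the 6 tested genes, MADS15 and MADS34 included, was 0.24, against 0.01 over all tested genes. Hd3a (OS06G0157700) had a score of 0.04, with differences from 0.04 at 28 DAH to 0.96 at 4 DAH. The photoperiod regulator Hd1 (OS06G0275000) was lower in FL at all 6 time points, with differences from -1.20 to -0.52. MADS14 (OS03G0752800), the closest relative of MADS15 in the list, differed by 0.39 at 4 DAH but by -0.56 at 20 DAH, and was at 138 to 280.2 CPM in FL and 97.6 to 282 CPM in SL. Averaged over leaves, 3 of the 6 tested genes rose and 2 fell at 20 DAH, against 28.2% and 27.7% of all tested genes. At 44 DAH, 2 rose and 2 fell, against 33.4% and 34.1%. With 6 genes, these counts are too small to be read as a departure from those shares. Without replicate 1 the numbers that rose were 1 at 20 DAH and 1 at 44 DAH, without replicate 3 those at 20 DAH were 1 that rose and 0 that fell, and without replicate 2 the number that fell at 20 DAH was 1. None of the 4 genes listed for the momilactone cluster, which makes diterpenoid phytoalexins, was a member or had FL above SL at all 6 time points, and their median mean difference was -0.20. Averaged over leaves, 3 of these 4 were lower and none was higher at 44 than at 4 DAH, against 34.1% and 33.4% of all tested genes.

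The members also held 2 enzymes at the entry to plastid pigments, named after their values were seen. GluTR (OS10G0502400), ranked 47, encodes glutamyl-tRNA reductase, which makes the first dedicated precursor of chlorophyll and heme. It had 896, 802, and 799.7 CPM in FL at 4 DAH, against 405, 441, and 453 CPM in SL. At 28 DAH it had 199.98, 223, and 275 CPM in FL, against 141, 155, and 138 CPM in SL. At 36 DAH it had 452, 473, and 409 CPM in FL, against 167, 215, and 392 CPM in SL. The difference lay between 0.60 and 0.94 over the days with all libraries, but that at 36 DAH (0.88) was 1.22 without SL replicate 3 and 0.61 without SL replicate 1. Each leaf had less GluTR at 28 than at 4 DAH. Averaged over leaves, it fell by 1.45 at 20 DAH (SE 0.11, adjusted p = 7.11e-12, limma) and by 1.62 at 44 DAH (SE 0.11, adjusted p = 1.62e-13).

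PSY1 (OS06G0729000), ranked 65, encodes phytoene synthase, which makes the first carotenoid. It had 516, 614, and 584 CPM in FL at 4 DAH, against 296, 317, and 299.5 CPM in SL. At 36 DAH it had 419, 439, and 385 CPM in FL, against 215, 284, and 233 CPM in SL. At 44 DAH it had 663, 629, and 661 CPM in FL, against 494, 333, and 508 CPM in SL. The libraries of PSY1 did not overlap on any day, and the difference lay between 0.54 and 0.90, although that at 44 DAH (0.57) was 0.38 without SL replicate 2. Averaged over leaves, PSY1 rose by 0.47 at 44 DAH (SE 0.09, adjusted p = 2.56e-05, limma). Its change at 20 DAH was 0.21 (adjusted p = 0.0397) and did not pass under 6 alternatives (adjusted p = 0.0518 to 0.399).

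A symbol was also given for OS01G0642000 and OS01G0279400, listed in the reference table as IMCEL2 and mfs1 and named after their values were seen. OS01G0642000 differed by 0.68 at 12 DAH and by 1.61 at 44 DAH, and with all libraries was the only member whose difference was largest at 44 DAH. Without SL replicate 2 its difference at 44 DAH was 1.22, below the 1.48 at 28 DAH. OS01G0642000 had 8.78, 10.9, and 12.04 CPM in FL at 44 DAH, against 3.07, 1.22, and 4.97 CPM in SL. Averaged over leaves, it fell by 2.33 at 44 DAH (SE 0.18, adjusted p = 3.66e-12, limma). OS01G0279400, averaged over leaves, rose by 2.97 at 44 DAH (SE 0.17, adjusted p = 1.82e-15), with 88.1, 76.4, and 70.7 CPM in FL, against 54.2, 59.2, and 47.4 CPM in SL.

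In the reference table, 85 of the 100 members were found, 83 as protein coding, 1 as a long noncoding RNA, and 1 as a transcribed pseudogene, and 9 had a symbol. By their identifiers, the members lay on all 12 chromosomes, with 3 to 15 on each. There were 15 on chromosome 1, 12 on chromosome 7, and 11 each on chromosomes 3, 4, and 11, which hold 14.5%, 7.59%, 13.3%, 8.65%, and 5.35% of the tested genes. There were 2 pairs of members with at most 2 genes between them. OS07G0178700 and OS07G0178800 were direct neighbours, and reads shared between them cannot be told apart from these values. OS07G0178700 had 3.18, 1.67, and 1.90 CPM in FL at 4 DAH, against 0.331, 2.01, and 0.814 CPM in SL, with overlap, and 168, 249.6, and 242 CPM in FL at 20 DAH, against 29.03, 12.7, and 17.5 CPM in SL, with none. OS07G0178800 had 3.60, 3.57, and 2.90 CPM in FL at 4 DAH, against 0.551, 2.398, and 2.29 CPM in SL, and 205, 260.1, and 289 CPM in FL at 20 DAH, against 45.1, 25.7, and 40.005 CPM in SL. Averaged over leaves, the 2 neighbours rose by 4.75 (SE 0.39, adjusted p = 2.63e-11, limma) and 4.91 (SE 0.35, adjusted p = 1.47e-12) at 20 DAH, the largest changes at that day among the members. At 36 DAH, SL replicate 3 stood at 180.2 CPM for OS07G0178700 and 361 CPM for OS07G0178800, where the other SL libraries were at 13.6 and 27.2 CPM and at 41.9 and 63.1 CPM. The difference at that day was 1.83 for OS07G0178700 and 1.11 for OS07G0178800, 2.89 and 2.04 without that library, and 1.07 and 0.50 without SL replicate 1.

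OS11G0267000 and OS11G0267300, with 1 gene between them, moved in different ways with time. OS11G0267000 was at 126 to 426 CPM in FL and 81.2 to 219 CPM in SL, and averaged over leaves it fell by 1.29 at 44 DAH (SE 0.12, adjusted p = 5.98e-11, limma). OS11G0267300 was at 68.3 to 209 CPM in FL and 35.4 to 125 CPM in SL, and it rose by 0.89 at 44 DAH (SE 0.07, adjusted p = 1.06e-11). The libraries of both genes did not overlap between leaves on any day.

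The limit of the rule fell in a dense part of the scores. Just inside were OS06G0108900 and OS09G0426800, both with 0.48, and just outside were OS10G0546600 and OS11G0103700, both with 0.47. In all, 2844 genes had a score above 0 and 2860 were higher in SL at all 6 time points, where the highest score was 1.24 and that of rank 100 was 0.47. OS06G0108900 was at 67.6 to 179.98 CPM in FL and 32.8 to 101.1 CPM in SL, and OS10G0546600 at 45.2 to 85.4 CPM in FL and 17.9 to 51.9 CPM in SL. With a pseudocount of 0.1 in place of 1, 56 of the 100 members were among the 100 highest scores. In 99 members the score stayed above 0 under each of 8 other ways of computing it, the exception being OS01G0690200, at -0.18 without replicate 2 and -0.02 with the median of the replicates.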

How the data were processed

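Poly(A) RNA of 36 libraries, 3 for each of FL and SL at 6 time points, was sequenced from strand-marked libraries. According to the methods and the submitters' processing notes, adapters were trimmed with cutadapt 1.2.1, reads were aligned to IRGSP-1.0 with TopHat2 2.0.10, and reads on genes were counted with HTSeq 0.6.1. The strand setting of the counting is not given in the sources used here. The deposited values are a linear signal made by the authors, CPM on library sizes scaled by TMM in edgeR, before the logarithm and quantile normalization of their methods. Of the values, 100% were whole reads within 0.01 reads, and the reads per library were recovered from them. No column was left out, no 2 libraries were identical, and correlations between replicates were 0.975 to 0.998.

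The members were chosen by the rule in the text, and the members and gene lists were chosen with earlier results of these data known. Named were the 20 members with the highest score, the 2 genes on each side of the limit, members of the lists, and neighbouring members, and others are said to be named after their values were seen. Changes with time were fitted in R 4.3.3 with limma 3.58.1 (trend), on quantile-normalized log2(CPM + 1) of all 36 libraries in 12 groups, for the 22057 genes that reached 1 in 3 libraries. The pseudocount of 1 makes the fold changes of low genes smaller. Later day minus 4 DAH was averaged over leaves, with Benjamini-Hochberg adjustment across every gene in the fit and a threshold of 0.05. The alternatives were other pseudocounts, normalizations, and filters, edgeR 4.0.16 on the recovered reads, a replicate block, and each replicate left out. The script was tested on simulated data. Names came from RefSeq (ASM3414082v1), used for names and neighbours only, with 23729 genes matched. Floors and depths cover counting error only. The promoter and product-word comparisons that were planned were not run, because no sequences or product names were used here. Values of 1 gene of the flowering list are not reported here.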

Additional observations from a re-analysis of the deposited data

Results flagged for a closer look

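In OS06G0102100, the libraries of the 2 leaves moved in opposite ways between 4 and 20 DAH. All 3 FL libraries were higher at 20 DAH (75.5, 109.7, and 64.0 CPM) than at 4 DAH (20.4, 13.7, and 20.2 CPM), a mean change of 2.12 log2 units. All 3 SL libraries were lower at 20 DAH (3.96, 1.31, and 1.10 CPM) than at 4 DAH (4.52, 4.89, and 5.50 CPM), a mean change of -1.04. The changes differed by 3.16. This difference was not tested, because FL minus SL of the same days chose the gene.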

How the results depend on the processing

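Membership depended most on the pseudocount, with 56 of the 100 members kept at 0.1 and 71 at 5. It was 93 with quantile normalization, 92 without TMM scaling, 81 with the median of the replicates, 73 to 80 with 1 replicate number left out, and 82 to 100 with any 1 of the 36 libraries left out, settings chosen after seeing the data (97 without SL replicate 3 and 87 without SL replicate 1 of 36 DAH, 82 without SL replicate 2 of 44 DAH). Without each of these 3 libraries, 97 to 99 members changed with time. Under all 8 planned settings together, 32 members were kept. The counts of members that changed with time moved little. Leaving out 1 replicate number gave 96 to 98 members changed, 63 to 66 higher and 10 to 13 lower at 20 DAH, and 52 to 57 higher and 22 to 24 lower at 44 DAH. The labels do not say whether replicate numbers pair the leaves, and the main fit used no pairing. Deviations from the group means correlated over 0.1 in 11 of 18 same-numbered FL and SL pairs of a day (mean 0.17). Among pairs with different numbers, 7 of 36 did (mean -0.09), so some shared variation between same-numbered libraries is possible. With a replicate block, 97 members changed with time, 66 were higher and 14 lower at 20 DAH, and 57 were higher and 22 lower at 44 DAH. Of 33 named members, the call at 44 DAH was lost in 1 with the block (OS04G0197100), and in 0 to 2 under each other setting, and none reversed. Depth limits the members with few reads in SL, 12 of which had an SL library at 3 reads or fewer.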
